A study of Mus musculus with 6 samples.

Results

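The regions described here are the upstream flanks of named transcription starts: for each start that the authors' peak files name, the stretch from 1000 to 3000 bp before it, read by strand. A flank was kept if at least 5 array probes lay in it and no other named start did. Of 10172 named starts, 40 had under 5 probes in this stretch and 360 had another named start within it, 2 of them both, which left 9774 flanks of 9308 gene symbols. A flank held 5 to 21 probes, with a median of 19. The window set against it, the first 1000 bp downstream of the same start, could be measured at 9762 starts and held 5 to 11 probes, with a median of 8. A start is named only where a peak of at least 1 array was listed near it, so the choice of starts is not independent of signal close to the start. The peak lists name 3732 of the flanks' starts on all 6 arrays and 2027 on 1 array alone.

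Ezh2 was immunoprecipitated from mouse embryonic stem (ES) cells grown with LIF on gelatin, and its DNA (Cy5) was hybridised to a NimbleGen promoter array against input DNA of the same cells (Cy3), with no dye swap. The R1 line, transfected with control siRNA or with Brca1 specific siRNA and harvested 48 h later, had 1 array per condition. The AB2.2 line (Brca1 wild-type) and the PL2F8 line (Brca1 deficient), both of strain 129/SvEvBrd-Hprtb-m2, had 2 arrays each, and AB2.2 and PL2F8 were each 1 line, so a difference between them cannot be told apart from other differences between the lines. Nothing in the labels puts the duplicates in separate cultures, and p-values reflect no more than the spread of these hybridisations, possibly a technical one. Arrays of this kind measure binding to DNA, so they check neither the loss of Brca1 nor the ES cell state.

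Ezh2 is the catalytic subunit of Polycomb repressive complex 2, which methylates lysine 27 of histone H3 and keeps genes silent. In ES cells the complex sits on CpG-rich promoters of genes that direct development, such as the Hox clusters, and there its domain can reach well past the start. At other promoters its signal is usually narrow or absent. The flank, which leaves out the kilobase next to the start, is where a broad domain would show and a narrow one would not. Brca1 is a DNA repair protein, and the study asked how its loss affects where Ezh2 binds.

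Values are log2 ratios of immunoprecipitated over input DNA, averaged over the probes of a window after each array was centred on the median of its 714900 probes, so that 0 is the typical probe and 1 is a doubling. Flank values of the duplicates correlated across 9774 flanks at r = 0.98 for AB2.2 and 0.99 for PL2F8, and the standard deviation of the duplicate differences was 0.12 and 0.07. Positions are those of the files; the sources used here do not give their genome build.

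The promoters of 3 starts are shown because their flank and downstream window differed between AB2.2 and PL2F8 in different ways: Klhl31 has the largest flank rise, Chst3 a large flank fall beside a downstream window that hardly differed, and Sec14l3 a flank fall beside a downstream rise. Each run is 250 bases before to 50 bases after the start in RefSeq (GRCm38.p6) of the gene of that symbol, and CG dinucleotides are in capitals. RefSeq positions differ from those of the files, so whether RefSeq's start is the start of the peak files was not tested. The 3 are Klhl31 at chr9:77636482-77636781 on the plus strand, Chst3 at chr10:60219211-60219510 on the minus strand and Sec14l3 at chr11:4064603-4064902 on the plus strand.
Klhl31: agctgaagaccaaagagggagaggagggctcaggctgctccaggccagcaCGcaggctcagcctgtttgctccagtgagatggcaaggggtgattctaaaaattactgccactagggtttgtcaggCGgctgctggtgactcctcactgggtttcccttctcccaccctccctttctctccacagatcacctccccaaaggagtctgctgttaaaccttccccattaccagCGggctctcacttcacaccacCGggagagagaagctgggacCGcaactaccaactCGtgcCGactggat
Chst3: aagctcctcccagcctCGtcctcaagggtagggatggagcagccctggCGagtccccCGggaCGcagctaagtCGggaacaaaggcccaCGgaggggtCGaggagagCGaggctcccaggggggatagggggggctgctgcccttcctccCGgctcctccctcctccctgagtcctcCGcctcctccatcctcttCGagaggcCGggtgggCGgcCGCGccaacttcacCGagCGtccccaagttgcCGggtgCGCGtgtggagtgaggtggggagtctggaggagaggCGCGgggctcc
Sec14l3: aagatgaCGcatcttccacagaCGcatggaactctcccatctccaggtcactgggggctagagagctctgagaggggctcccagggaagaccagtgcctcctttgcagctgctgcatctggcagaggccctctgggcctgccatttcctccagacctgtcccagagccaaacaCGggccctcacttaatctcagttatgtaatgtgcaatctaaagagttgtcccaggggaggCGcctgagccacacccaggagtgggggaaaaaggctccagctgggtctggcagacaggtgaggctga
The dinucleotide CG, which reads the same on both strands, was found in 94.6% of the 32851 promoters of the RefSeq table, with a median of 7 per promoter. The Chst3 promoter holds 22, a count reached by 23.1% of all promoters. Klhl31 holds 7, a count reached by 52.1%, and Sec14l3 holds 4, a count reached by 68.6%.

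The typical flank carried about as much Ezh2 signal as the typical probe, in all 3 lines. The median flank value was 0.038 in R1 with control siRNA and 0.066 with Brca1 siRNA, -0.0065 and 0.022 in the AB2.2 duplicate, and 0.027 and 0.018 in the PL2F8 duplicate. All 6 arrays thus lay within 0.1 of 0. The downstream windows of the same starts had medians of 0.96 and 1.04 in R1, 0.78 and 0.57 in AB2.2, and 1.27 and 1.19 in PL2F8. The 2 lines' arrays did not overlap downstream, where PL2F8 exceeded AB2.2 by 0.56, while their flank medians differed by 0.015. An exact two-sided permutation test of 2 arrays against 2 cannot go below p = 0.333; it gave 0.333 downstream and 0.667 for the flanks.

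Upstream of the start, the signal fell with distance on every array. In AB2.2 the mean over starts was 0.91 in the first 250 bp downstream, 0.73 in the 250 bp just upstream, 0.22 in the flank's nearest 250 bp and 0.03 in its farthest 250 bp. In PL2F8 it was 1.57, 1.17, 0.33 and 0.09 in the same bins. The median difference between the lines went from 0.68 in the first 250 bp downstream to 0.42 just upstream, 0.05 at the near edge of the flank and -0.01 at its far edge. Within the flanks, the nearer kilobase had medians of 0.02 to 0.10 over the 6 arrays and the farther one -0.038 to -0.0060.

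**Figure D1:**
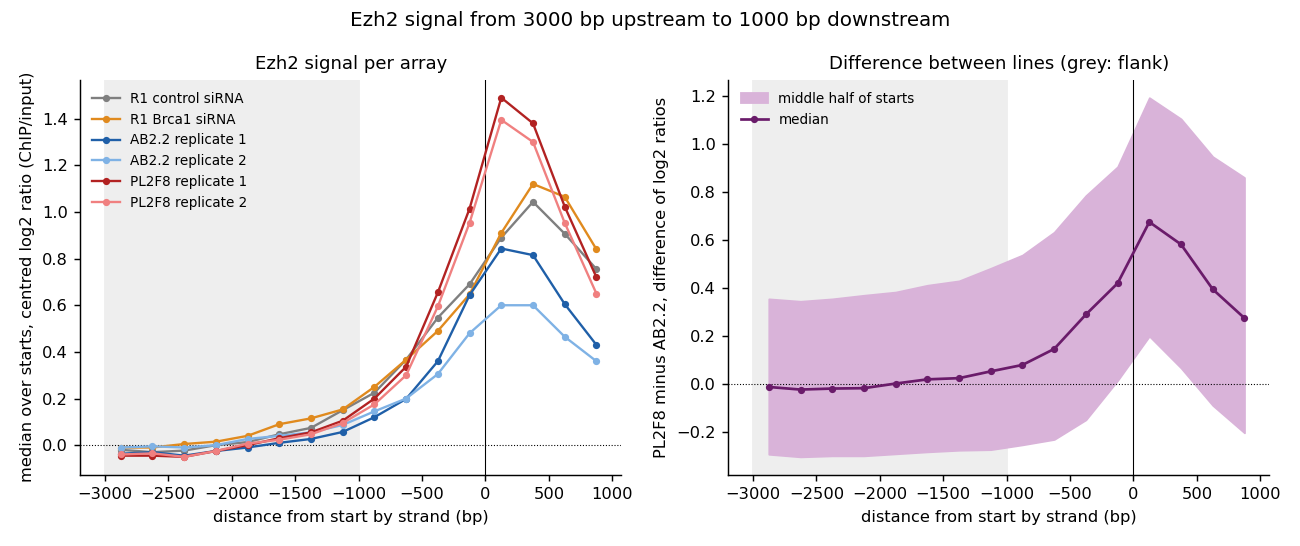
Median over starts of the centred log2 ratio of Ezh2 ChIP over input, per array, by distance from named starts in 250 bp bins. Beside it is the median PL2F8 minus AB2.2 difference over starts with its quartiles. The line difference was 0.68 just downstream of the start and between -0.02 and 0.05 in the bins of the flank.

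A minority of flanks carried strong signal, and genes that direct development made up a large share of the highest. Over the mean of the 6 arrays, 643 flanks (6.58%) reached 1, 436 reached it on each of the 6 arrays, and 8498 reached it on none. At 141 flanks every array reached 2, and 72 of their 140 genes were on the 5 lists of developmental genes used here, which hold 344 of all flank genes. By level of at least 1, 545 starts were high in both windows, 97 in the flank only, 4059 in the downstream window only and 5061 in neither. The developmental genes numbered 192, 8, 135 and 9 in these 4 classes.

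The highest flank was that of Hoxd11, a homeobox gene that patterns limbs and the posterior body (chr2:74517449-74519449). It read 4.65 and 4.25 in R1, 4.13 and 3.92 in AB2.2, and 4.23 and 4.15 in PL2F8. All of its arrays stood above its downstream window, which read 2.34 and 2.63 in R1, 2.57 and 2.19 in AB2.2 and 3.53 and 3.33 in PL2F8. Prdm12, a zinc finger gene needed for pain-sensing neurons (chr2:31492556-31494556), read 4.54 and 4.51 in R1, 3.93 and 3.53 in AB2.2 and 4.25 and 4.08 in PL2F8. Hmx2, a homeobox gene of the inner ear (chr7:138694575-138696575), read 4.75 and 4.40 in R1, 3.37 and 3.28 in AB2.2 and 3.91 and 3.82 in PL2F8. At Hmx2 the 3 lines formed separate bands, with AB2.2 lowest. Tal1, the basic helix-loop-helix factor that specifies blood (chr4:114729131-114731131), read 3.89 and 4.19 in R1, 3.69 and 3.37 in AB2.2 and 3.95 and 3.79 in PL2F8.

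The next highest were Barx2 (mean of the 6 arrays 3.78), a homeobox gene, Pcdh7 (3.76), a protocadherin that joins cells, Pou3f2 (3.73), a neural POU factor, and Lmx1b (3.72), a LIM homeobox gene of the dorsal limb. In the Pou3f2 flank all 6 arrays lay between 3.61 and 3.91, so the lines overlapped. The Lmx1b flank was higher in R1 (4.32 and 4.21) than in PL2F8 (3.68 and 3.63) and AB2.2 (3.46 and 3.02). At the other end, the flanks of Ddx51, an RNA helicase of ribosome assembly, of Noc4l, a nucleolar assembly factor, and of Surf1, which helps assemble cytochrome c oxidase, averaged -1.02, -1.003 and -0.96. Ddx51 and Noc4l are transcribed away from each other, and the flank of each begins 932 bp beyond the other's start.

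Among the gene lists, the Hox genes, which set position along the body axis, had the highest share of flanks with a mean of at least 1, 29 of 39 (74.4%). Homeobox, paired box and LIM genes followed with 81 of 121 (66.9%). Mesoderm and endoderm regulators had 38 of 61 (62.3%), neural regulators 24 of 40 (60%), and signalling ligands and receptors 28 of 83 (33.7%). The share over all flanks was 6.58%. In the counts and medians by gene list, each gene entered by its start with the highest mean flank value. The values over all flanks take every start, and 413 genes had 2 or more flanks. This choice can raise the shares of the lists. Hox flank medians were 1.72 and 1.73 on the PL2F8 arrays, against 0.03 and 0.02 over all flanks.

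Potassium channel and solute carrier genes reached 1 far more often downstream than in the flank, as did all starts. Potassium channel genes, which set the membrane potential of excitable cells, reached 1 downstream at 66 of 76 starts and in the flank at 9. Solute carrier genes, which encode membrane transporters, did so at 111 and 7 of 195 starts. Over all starts the counts were 4604 of 9762 downstream and 643 of 9774 in the flank. Germline genes reached 1 downstream at 13 of 36 starts and olfactory receptor genes at 16 of 130, both lower shares than over all starts, and neither list had a flank at 1.

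**Figure D2:**
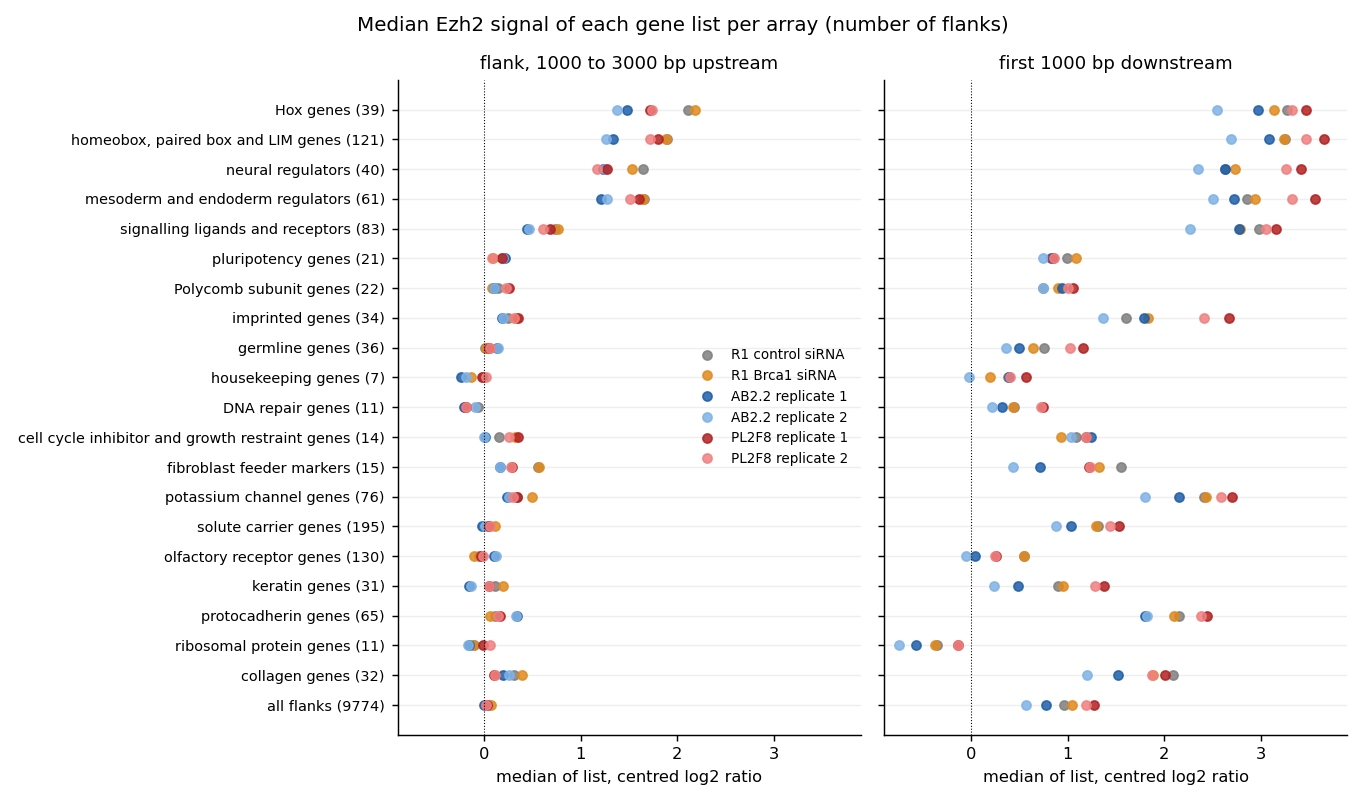
Flank and downstream values of the starts of each gene list, as centred log2 ratios of Ezh2 ChIP over input. The Hox, homeobox, mesoderm and neural lists are high in both windows, while potassium channel genes are high downstream only, with 66 of 76 starts at 1 or more there and 9 in the flank.

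The flank signal did not always coincide with a peak in the authors' lists. A listed peak overlapped a flank by at least 1 bp at 840 flanks (8.59%) with control siRNA and 977 (10%) with Brca1 siRNA in R1, at 601 (6.15%) and 657 (6.72%) in AB2.2, and at 500 (5.12%) and 475 (4.86%) in PL2F8. Downstream windows were overlapped far more often, with 49% and 50.6% in R1, 45.2% and 38.3% in AB2.2, and 57.9% and 56.9% in PL2F8. PL2F8 thus had the fewest flanks and the most downstream windows with a peak, while R1 exceeded AB2.2 in both. In the flanks the order of AB2.2 and PL2F8 turned when an overlap of at least 500 bp was required, with 106 and 109 flanks in AB2.2 and 143 and 144 in PL2F8. In all, 2169 flanks had a listed peak on some array and 77 on all 6. A peak on both PL2F8 arrays and no AB2.2 array was listed at 193 flanks, and the reverse at 269.

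Flanks with the highest values mostly had no listed peak, though they had one more often than flanks at large. Of the 293 flanks at 2 or more on the R1 control siRNA array, 44 (15%) carried one on that array. The share on the other arrays lay between 13.8% and 21.6%, against 4.86% to 10% of all flanks on single arrays. At 93 of the 141 flanks that reached 2 on every array no array listed a flank peak, and 6 had one on all 6 arrays. Of all 9774 flanks, 2169 had one on some array and 77 on all 6. A downstream peak was listed on all 6 arrays at 88 of the 141, while single arrays listed one at 38.3% to 57.9% of all downstream windows. Hmx2, Tal1, Barx2, Pcdh7 and Lmx1b belong to this pattern, with a downstream peak on 6 arrays and a flank peak on none. Where a flank peak was listed, the median flank value on that array was 0.49 to 0.72, so that most such flanks were of moderate level.

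Within arrays, the downstream window exceeded the flank at most starts. By limma on the within-array differences of the 4 AB2.2 and PL2F8 arrays, 7763 of 9762 starts (79.5%) were higher downstream and 1005 (10.3%) were higher in the flank, with a median difference of 0.92. By at least 0.5, 6643 (68%) were higher downstream and 432 (4.43%) in the flank. The starts entered through a listed peak near them, so an excess close to the start was in part given by their choice. These counts, and the p-values of this difference at single starts, describe starts so chosen. The median difference was 1.42 for starts on an AB2.2 peak list and 1.87 for starts on all 6 lists. The flank values of an array correlated with its downstream values across starts at r between 0.40 and 0.43, 2 windows of the same DNA sample.

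The starts with the flank farthest above the downstream window were Hspa1l, Dnajc22, Grwd1, Pax5, Isg15 and Dlx1as. Hspa1l, a testis member of the Hsp70 chaperone family, read 3.00 and 3.00 in R1, 3.45 and 3.12 in AB2.2 and 3.72 and 3.53 in PL2F8 in the flank, against 0.72 and 0.04, -0.38 and -0.32, and 0.33 and 0.25 downstream. No array overlapped between its windows, and the downstream minus flank difference over both lines was -3.48 ± 0.08 (SE, 4 arrays, limma adjusted p = 7.78e-08). Its flank lies 454 bp from the named start of Hspa1a, the inducible Hsp70 gene. For Pax5, the B cell identity factor, the flank read 3.65 and 3.55 in R1, 3.11 and 2.99 in AB2.2 and 3.82 and 3.58 in PL2F8, and the difference was -2.81 ± 0.09 (limma adjusted p = 9.1e-08). Isg15, an interferon-induced ubiquitin-like protein, differed by -2.70 ± 0.09 and Dlx1as, a transcript antisense to the forebrain homeobox gene Dlx1, by -2.70 ± 0.11 (limma adjusted p = 9.36e-08 and 2.03e-07). Another named start lay within 2000 bp of the flank at 24.9% of the 1005 starts whose flank was higher, and at 15.8% of all.

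The reverse pattern was seen at Tmprss2, a serine protease of epithelia. Its downstream window read 4.40 and 3.89 in R1, 4.34 and 3.72 in AB2.2 and 4.26 and 4.17 in PL2F8, while its flank lay between -0.35 and -0.10 on all 6 arrays. The downstream minus flank difference was 4.35 ± 0.11 (SE, limma adjusted p = 7.78e-08). Syt12, a synaptotagmin (4.25 ± 0.09), Zfp36l3, a zinc finger protein of the placenta (4.14 ± 0.09), Gm996 (4.12 ± 0.07) and Csgalnact1, which starts chondroitin sulfate chains (4.10 ± 0.09), had the same adjusted p. These 5 starts carried a listed downstream peak on every array and no listed flank peak.

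Between AB2.2 and PL2F8, more flanks were higher in PL2F8 than lower, but the balance depended on how arrays were scaled. A difference between these lines can lie with either: across all 9774 flanks the R1 control siRNA array correlated with the PL2F8 arrays at r = 0.89 and 0.89 and with the AB2.2 arrays at 0.80 and 0.76. Rises and falls below are of PL2F8 relative to AB2.2, with the R1 values beside them. By limma, 3541 of 9774 flanks (36.2%) were higher in PL2F8 and 2336 (23.9%) lower, and the median over all flanks was 0.04. After quantile normalization of the probes, which forces all arrays to 1 distribution, 2461 were higher and 3553 lower and that median was -0.06, a shift of over 0.1 against all flanks. The share of higher among called flanks went from 60.3% to 40.9%. Without PL2F8 replicate 1 the lower flanks numbered 1410, and without PL2F8 replicate 2 they numbered 1514. Flanks past the threshold by at least 0.5 numbered 1074 (11%) higher and 325 (3.33%) lower. Directions of single flanks below are those of median centring, and the 10 largest rises and 10 largest falls named below kept their signs under quantile normalization.

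Klhl31, a Kelch-like protein of striated muscle, had the largest flank rise (chr9:77481538-77483538, 15 probes). Its flank read 0.80 and 0.16 in R1, -0.01 and -0.01 in AB2.2 and 1.82 and 1.81 in PL2F8. PL2F8 was higher than every other array, by 1.83 ± 0.05 over AB2.2 (SE, limma adjusted p = 8.93e-07). Downstream AB2.2 was higher than PL2F8, with 1.23 and 1.21 in AB2.2 and 0.16 and 0.14 in PL2F8, and R1 at 0.13 and 0.09.

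Fkbp4, a co-chaperone of Hsp90 (chr6:128389649-128391649), read -0.17 and -0.52 in R1, -1.14 and -1.25 in AB2.2 and 0.57 and 0.50 in PL2F8, a rise of 1.73 ± 0.06 (limma adjusted p = 1.14e-06). Hes2, a repressor of the Hairy and Enhancer of split family (chr4:151529975-151531975), read 0.95 and 0.76 in R1, -0.18 and -0.48 in AB2.2 and 1.33 and 1.34 in PL2F8, a rise of 1.67 ± 0.09 (limma adjusted p = 2.65e-06). In both flanks R1 lay between the other 2 lines. Spic, an Ets factor of red pulp macrophages (chr10:88146768-88148768), read 0.40 and -0.35 in R1, -0.89 and -1.01 in AB2.2 and 0.72 and 0.67 in PL2F8, a rise of 1.65 ± 0.06 (limma adjusted p = 1.2e-06) that lay in the nearer kilobase, the farther one differing by -0.09. Xirp1, an actin-binding protein of striated muscle, rose by 1.57 ± 0.05, Pigs, a subunit of the enzyme that attaches GPI anchors, by 1.47 ± 0.06, and Tmem185b by 1.45 ± 0.06 (limma adjusted p between 1.14e-06 and 1.63e-06).

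Kdelr1, a receptor that returns proteins to the endoplasmic reticulum, was the largest riser with signal already present in AB2.2. It read 1.56 and 2.21 in R1, 0.65 and 0.24 in AB2.2 and 1.90 and 1.84 in PL2F8, a rise of 1.43 ± 0.11 (limma adjusted p = 1.33e-05). Its downstream window read between -0.60 and -0.03 on the 6 arrays, and a flank peak was listed on 5 of them. E130303B06Rik and Lat, an adaptor of T cell receptor signalling, rose by 1.41 ± 0.07 and 1.38 ± 0.05 (limma adjusted p = 2.24e-06 and 1.42e-06). In Lat the rise was from -1.69 and -1.75 in AB2.2 to -0.32 and -0.35 in PL2F8, so that neither line was above the typical probe.

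Among the falls, 8430427H17Rik had the largest, with 0.39 and 0.65 in R1, 2.28 and 2.13 in AB2.2 and 0.45 and 0.42 in PL2F8, a difference of -1.77 ± 0.06 (limma adjusted p = 1.14e-06). Chst3, which sulfates chondroitin (chr10:59652455-59654455), read 0.60 and 0.92 in R1, 1.85 and 1.55 in AB2.2 and -0.01 and 0.05 in PL2F8, and fell by 1.68 ± 0.09 (limma adjusted p = 2.51e-06). Sec14l3, of the Sec14-like lipid-binding family (chr11:3961843-3963843), read 0.02 and 0.43 in R1, 1.27 and 1.48 in AB2.2 and -0.12 and -0.16 in PL2F8, and fell by 1.51 ± 0.07 (limma adjusted p = 2.02e-06). At all 3, AB2.2 stood alone above the other 4 arrays.

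Pou5f1, the pluripotency factor Oct4 (chr17:35639983-35641983, 18 probes), read -0.12 and -0.52 in R1, 0.85 and 0.82 in AB2.2 and -0.66 and -0.68 in PL2F8, and fell by 1.51 ± 0.05 (limma adjusted p = 1.14e-06). The difference lay in 4 neighbouring probes 1048 to 1333 bp upstream. The highest of them read 7.17 and 6.72 in AB2.2, -1.40 and -1.33 in PL2F8, and 0.44 and -0.90 in R1. Over the flank's other probes the mean difference was -0.03. Whether probe ratios this high on both AB2.2 arrays and on no other array reflect Ezh2 binding was not tested. At the Chst3 flank the highest probe read 7.20 and 6.88 in AB2.2 and 1.20 and 0.88 in R1.

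Short runs of high AB2.2 probes were seen at all 10 named falls, with the others being Olfr168, an odorant receptor, Net1, an exchange factor for RhoA, Grinl1a, Dnajb2, an Hsp40 co-chaperone, Mrrf, which recycles mitochondrial ribosomes, and Pde6g, a subunit of the rod phosphodiesterase. Over the 10, both AB2.2 arrays exceeded both PL2F8 arrays by at least 2 at 3 to 7 probes, of which 3 to 6 were neighbours. The probe of each flank that differed most between AB2.2 and PL2F8 read 4.35 to 7.20 on both AB2.2 arrays and at most 1.37 on the R1 arrays. The remaining probes differed by -0.47 to 0.05 on average. In the 10 rises, both PL2F8 arrays exceeded both AB2.2 arrays by at least 2 at 1 to 8 probes, of which up to 7 were neighbours (Fkbp4), and the remaining probes differed by 0.20 (Spic) to 1.37 (Kdelr1). Dnajb2 fell by 0.22 with the median of probes (limma adjusted p = 0.0437), and its nearer kilobase differed by 0.27 the other way. Taking away the probes that differ most shrinks any difference by construction.

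**Figure D3:**
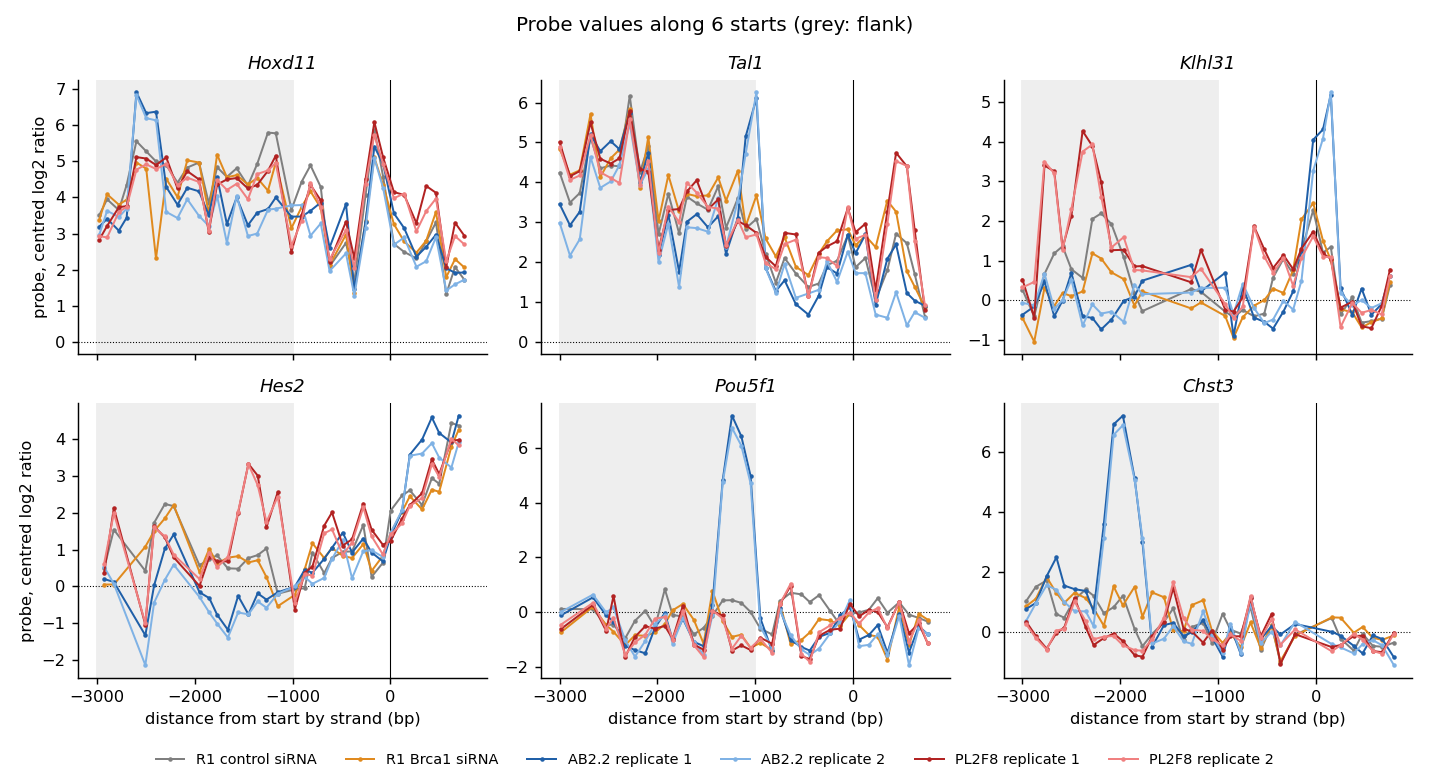
Centred log2 ratio of single probes by distance from the start at 6 starts, for each of the 6 arrays. At Pou5f1 and Chst3 a few neighbouring probes stand at up to 7.17 and 7.20 on the AB2.2 arrays. At Klhl31 a PL2F8 array reaches 4.27 in the flank, and the AB2.2 arrays reach 5.19 and 5.25 downstream. At Hes2 the PL2F8 arrays exceed all others in the 5 flank probes nearest to the start.

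A run of at least 3 neighbouring probes in which both arrays of a line exceeded both of the other by 2 was counted in all flanks, a rule chosen after these values were seen. AB2.2 had such a run at 188 flanks (1.92%) and PL2F8 at 121 (1.24%). In downstream windows the counts turned round, 118 (1.21%) and 148 (1.52%). Of the 325 flanks lower in PL2F8 by at least 0.5, 126 (38.8%) had a run, against 99 (9.22%) of the 1074 that were higher. With the median of the probes in place of the mean, 246 (75.7%) of the 325 and 982 (91.4%) of the 1074 passed the test in the same direction.

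**Figure D4:**
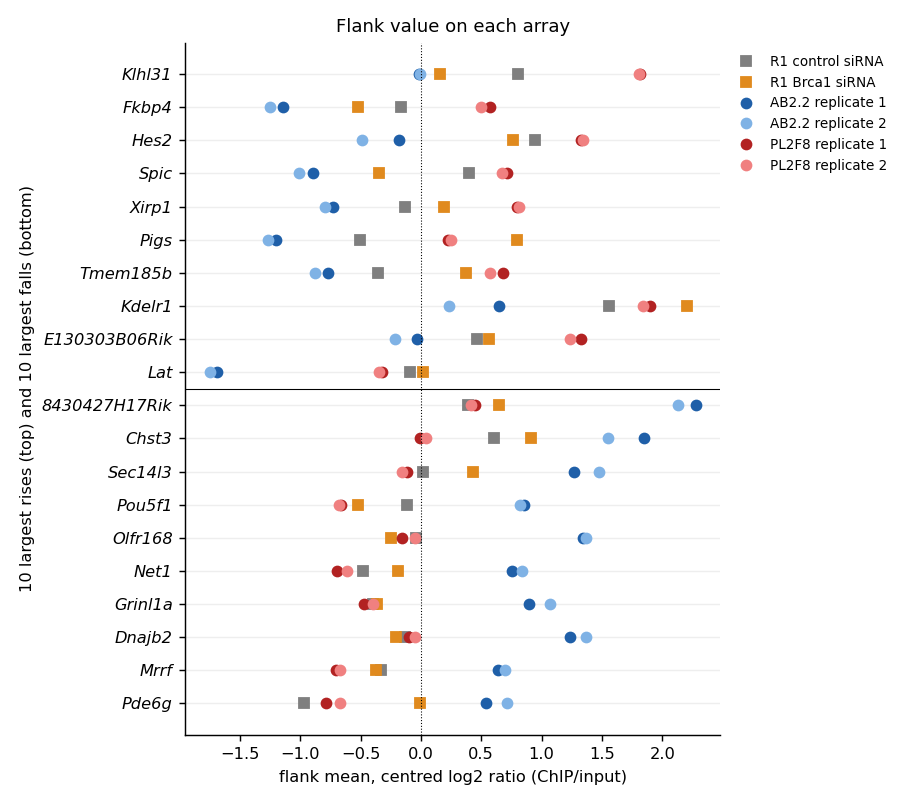
Flank values on each of the 6 arrays for the 10 largest rises and 10 largest falls of PL2F8 against AB2.2, as centred log2 ratios. The duplicates of a line lie close together, and at Pou5f1 the AB2.2 arrays read 0.85 and 0.82 against -0.66 and -0.68 in PL2F8.

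By gene list, the counts are read beside those over all flanks, 36.2% higher and 23.9% lower in PL2F8, or 25.2% and 36.4% after quantile normalization. Over all flanks these shares were 35.6% and 22.3% in the nearer kilobase and 30.9% and 25% in the farther one. With the median of probes they were 24.5% and 16.1%. Leaving out either PL2F8 array lowered both counts over all flanks as well, so such a drop in a list need not be particular to it. Homeobox, paired box and LIM flanks were higher at 68 and lower at 13 of 121 (median difference 0.21), or 43 and 34 after quantile normalization, and without PL2F8 replicate 2 the lower ones numbered 8. Mesoderm and endoderm regulators had 38 higher and 8 lower of 61 (median 0.23), or 23 and 16 after quantile normalization, and the lower ones numbered 5 and 4 without PL2F8 replicate 1 and 2. The Hox flanks were higher at 16 and lower at 6 of 39 (median 0.10), a share of higher flanks near that of all flanks. They had 9 and 15 after quantile normalization and 16 and 14 in the nearer kilobase. In the farther kilobase they had 21 and 6, and with the median of probes 17 and 5. Neural regulators had 20 higher and 10 lower of 40 (median 0.16) and turned to 11 and 14 after quantile normalization. Without PL2F8 replicate 1 they had 12 higher, and without PL2F8 replicate 2 they had 5 lower. Signalling ligands and receptors had 38 and 18 of 83 (median 0.15) and turned to 23 and 31. The median over all flanks was 0.04, and -0.06 after quantile normalization.

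Single regulators with large rises came from several of these lists. Wt1, a zinc finger factor of kidney and gonad, read 1.05 and 0.96 in AB2.2, 2.36 and 2.25 in PL2F8 and 2.11 and 2.06 in R1, so that AB2.2 stood apart, and rose by 1.303 ± 0.06 in PL2F8 (limma adjusted p = 1.96e-06). Foxj1, the regulator of motile cilia, rose by 1.29 ± 0.08 from below 0 (limma adjusted p = 5.25e-06). Dbx1, a homeobox gene of spinal interneurons, rose by 0.98 ± 0.07, Isl2, a LIM homeobox gene of motor neurons, by 0.96 ± 0.06, and Wnt7a, a Wnt ligand, by 0.95 ± 0.06 (limma adjusted p between 3.48e-06 and 7.61e-06).

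Within the Hox clusters the direction differed by gene. Hoxa2, which patterns the hindbrain, rose by 0.77 ± 0.05, with 1.54 and 1.49 in AB2.2 and 2.31 and 2.26 in PL2F8. Hoxb8 rose by 0.75 ± 0.09 (limma adjusted p = 8.39e-06 and 0.000107). Hoxc12, a gene of the posterior end of its cluster, fell by 0.82 ± 0.06, with 2.80 and 2.86 in AB2.2 and 2.07 and 1.95 in PL2F8, and Hoxd12, a limb gene, fell by 0.46 ± 0.07 (limma adjusted p = 1.01e-05 and 0.000616). Hoxd11, the highest flank of all, differed by 0.16 ± 0.07, which did not pass (limma adjusted p = 0.0822).

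Pluripotency genes had 3 flanks higher and 9 lower of 21 (median -0.08), or 2 and 14 after quantile normalization, and 2 and 5 without PL2F8 replicate 1, as without PL2F8 replicate 2. Tbx3, a T-box factor that is also a developmental regulator, was their only flank with a mean of at least 1, at 3.52 and 3.47 in R1, 1.78 and 1.51 in AB2.2 and 1.46 and 1.39 in PL2F8. Genes of Polycomb subunits had 9 higher and 3 lower of 22, near the share of all flanks, but 6 and 5 after quantile normalization and 5 and 7 in the farther kilobase. Among them Jarid2, a cofactor of the Ezh2 complex, rose by 0.79 ± 0.06 from -0.15 and -0.23 to 0.59 and 0.61 (limma adjusted p = 8.11e-06), although its farther kilobase differed by -0.29. Cbx8, a reader subunit of Polycomb repressive complex 1, had one of the highest flanks of all, between 3.28 and 4.02 on the 6 arrays, and its difference of 0.18 ± 0.08, or -0.0081 after quantile normalization, did not pass (limma adjusted p = 0.0976).

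Imprinted genes had 14 higher and 7 lower of 34, near the share of all flanks, and 9 and 9 after quantile normalization. Without PL2F8 replicate 1 or 2 the lower ones numbered 3 or 4. Among them Kcnk9, a maternally expressed potassium channel, rose by 1.15 ± 0.10 from a mean of 2.33 in AB2.2 to 3.48 in PL2F8 (limma adjusted p = 1.83e-05). Potassium channel genes had 34 higher and 14 lower of 76, or 23 and 21 after quantile normalization and 23 and 25 in the farther kilobase. Without PL2F8 replicate 1 they had 23 and 9, and without PL2F8 replicate 2 they had 29 and 7. Kcnj11, a subunit of the ATP-sensitive channel, fell by 1.18 ± 0.06 (limma adjusted p = 1.96e-06). Germline genes had 10 higher and 14 lower of 36, but 13 and 8 in the nearer kilobase, and Ddx4, the germ cell RNA helicase Vasa, fell by 0.96 ± 0.07 from 1.06 and 1.23 to 0.20 and 0.17 (limma adjusted p = 7.35e-06). Of the cell cycle inhibitor and growth restraint genes 10 of 14 were higher and 2 lower, or 7 and 4 after quantile normalization. Among them Lats2, a kinase of the Hippo pathway, rose by 0.90 ± 0.06 and Cdkn2a, which encodes p16 and Arf, fell by 0.33 ± 0.06 (limma adjusted p = 8.05e-06 and 0.000971). DNA repair genes had 6 higher and 2 lower of 11, but 3 and 3 after quantile normalization, 2 and 3 in the farther kilobase, 2 and 0 without PL2F8 replicate 1 and 5 and 0 without PL2F8 replicate 2. Of these Xpa, a factor of nucleotide excision repair, rose by 0.72 ± 0.05 from below 0 (limma adjusted p = 1.13e-05).

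The remaining lists held gene families and markers of other cells. Their counts without a PL2F8 array are read beside the drop over all flanks in the same settings. Olfactory receptor genes had 24 flanks higher and 57 lower of 130 (median -0.12), or 17 and 74 after quantile normalization and 20 and 31 without PL2F8 replicate 1. Solute carrier genes had 73 higher and 41 lower of 195, or 51 and 63 after quantile normalization and 53 and 24 without PL2F8 replicate 1. Keratin genes had 17 and 6 of 31, or 10 and 5 without PL2F8 replicate 1. Protocadherin genes had 18 and 21 of 65, but 16 and 11 without PL2F8 replicate 1. Collagen genes had 11 and 13 of 32, but 11 and 5 without PL2F8 replicate 1, 11 and 4 without PL2F8 replicate 2, and 12 and 5 with the median of probes. Ribosomal protein genes had 6 and 3 of 11, or 3 and 2 without PL2F8 replicate 2, and housekeeping genes 3 and 0 of 7, but 2 and 3 after quantile normalization. Markers of fibroblasts, the feeder cells on which ES lines are often grown, had 8 higher and 6 lower of 15, with 8 and 1 without PL2F8 replicate 1 and 8 and 2 without PL2F8 replicate 2. Of these Col1a1, a fibrillar collagen chain, rose by 1.02 ± 0.07 and Fn1, fibronectin, fell by 0.30 ± 0.06 (limma adjusted p = 6.02e-06 and 0.00221). These values are binding at the genes and not their expression, so they do not measure feeder cells.

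The downstream windows differed between the lines far more than the flanks. By limma, 5989 of 9762 downstream windows (61.4%) were higher in PL2F8 and 737 (7.55%) lower; the median over starts was 0.55. Past the threshold by at least 0.5 were 5159 (52.8%) higher and 548 (5.61%) lower windows. The within-array difference, downstream minus flank, was larger in PL2F8 at 5220 starts (53.5%) and smaller at 1063 (10.9%), with a median change of 0.48. By at least 0.5 it was larger at 4689 (48%) and smaller at 859 (8.8%). By adjusted p alone after quantile normalization, the difference was larger at 5050 and smaller at 1441, and the lower downstream windows numbered 1357. Without AB2.2 replicate 2 the lower downstream windows numbered 1265 and the smaller differences 1888; without PL2F8 replicate 2 they numbered 418 and 573. Without PL2F8 replicate 1 they numbered 449 and 585, and the larger differences 3358. Among the 545 starts high in both windows the median line difference was 0.27 in the flank and 0.60 downstream. Among the 4059 high downstream only it was 0.06 and 0.67. Because starts entered through a listed peak near them on some array, the counts above and the largest changes named next depend in part on that choice. Of the 5960 starts on an AB2.2 peak list, 54.4% passed the threshold as higher downstream in PL2F8 and 9.5% as lower. Their within-array difference was larger at 46.9% and smaller at 12.1%.

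Aldh1b1, a mitochondrial aldehyde dehydrogenase, had the largest rise of downstream over flank. Its downstream window read 1.53 and 1.24 in R1, 0.53 and -0.10 in AB2.2 and 3.56 and 3.36 in PL2F8, while its flank was at 0.30 or below on the 6 arrays. The change between lines was 3.04 ± 0.22 (SE, limma adjusted p = 0.00018). Rhox2b, a reproductive homeobox gene on the X chromosome (2.90 ± 0.18), Sec14l3 (2.74 ± 0.13), Olfr551, an odorant receptor (2.71 ± 0.13), and Prss41, a serine protease (2.59 ± 0.15), followed, with limma adjusted p between 0.000151 and 0.00018. In Sec14l3 both windows contributed, since the flank fell while the downstream window went from -0.64 and -0.52 to 0.72 and 0.58.

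In the opposite direction, Exosc5, a subunit of the RNA exosome, read 3.10 and 3.21 downstream in AB2.2, -0.35 and -0.21 in PL2F8 and -0.33 and 0.30 in R1, with flanks between -0.51 and -0.09. The change was -3.56 ± 0.14 (SE, limma adjusted p = 0.000151). Arhgef16 (-3.50 ± 0.15), Klhl31 (-2.90 ± 0.13), Crispld2, a secreted protein (-2.85 ± 0.14), and Marcks, a substrate of protein kinase C (-2.80 ± 0.14), had the same adjusted p. At Klhl31 the downstream part of the change lay mostly in the neighbouring high AB2.2 probes 73 and 153 bp downstream. Marcks kept a flank of 1.19 to 1.36 on all 6 arrays. Its downstream window was 2.85 and 2.93 in AB2.2, 0.05 and 0.13 in PL2F8 and 0.33 and 0.53 in R1, so that AB2.2 stood apart from both other lines.

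**Figure D5:**
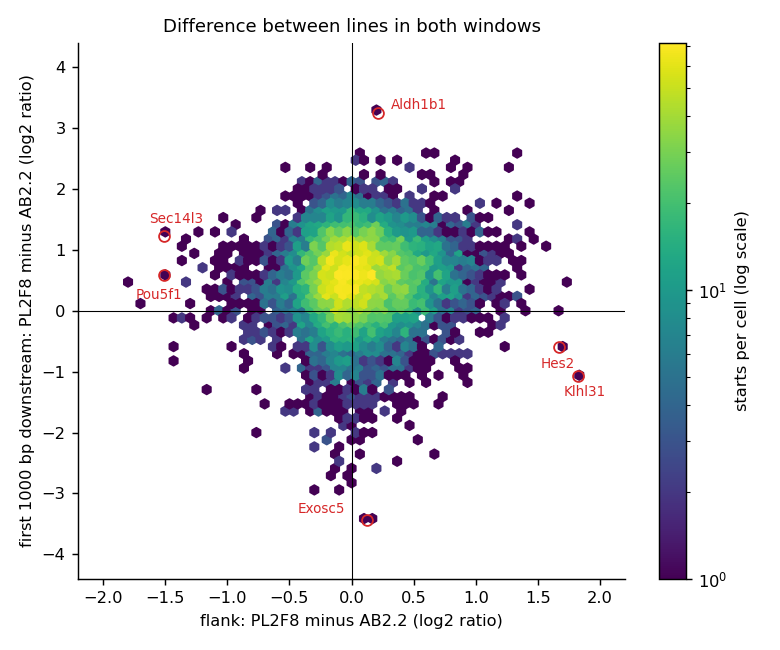
PL2F8 minus AB2.2 difference of the downstream window against that of the flank for 9762 starts, in log2 units, with named starts marked. The cloud is shifted up by a median of 0.55 downstream and by 0.04 in the flank, and Sec14l3, Pou5f1 and Klhl31 lie in the quadrants where the windows differ in sign.

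In R1 cells each condition had 1 array, so the difference between Brca1 siRNA and control siRNA has no replicate check. The flank was at least 0.5 higher with Brca1 siRNA at 613 flanks (6.27%) and at least 0.5 lower at 283 (2.9%), with a median difference of 0.02. Downstream the counts were 1120 (11.5%) and 945 (9.68%). A peak was listed on the Brca1 siRNA array alone at 614 flanks, on the control array alone at 477 and on both at 363. The genes named next have the largest differences among these flanks, which entered through the array on which they are high, so their differences are a description of how they were chosen. The largest increases were at Slc1a4, a neutral amino acid transporter, which read -0.54 with control and 0.81 with Brca1 siRNA, at Pigs, with -0.50 and 0.80, and at Lrfn4, a synaptic adhesion protein, with -0.02 and 1.24. Sigirr, a negative regulator of interleukin signalling, read -0.58 and 0.63, Rgs19, which shortens G protein signals, read 0.69 and 1.87, and Unc93a 0.22 and 1.42.

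The largest decreases were at Defb34, a beta-defensin, which read 1.60 with control and -0.54 with Brca1 siRNA over 6 probes, and at Scgb1a1, the secretoglobin of airway club cells, with 1.15 and -0.11. Pla2g2f, a secreted phospholipase, read 1.02 and -0.09, Jmjd8 0.54 and -0.56, Adamtsl2 0.88 and -0.21, and Apol7a 0.80 and -0.26. None of these 6 had a listed downstream peak on more than 1 array. Pigs was in both sets of named flanks: it rose in PL2F8 against AB2.2 and was higher with Brca1 siRNA in R1. Both sets were picked by their extremes, so this overlap is only a description of that choice. Other named rises ran both ways in R1, with Klhl31 and Spic lower and Kdelr1 higher with Brca1 siRNA.

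Flanks near a neighbour differed in level. At 592 starts an opposite-strand named start lay under 1000 bp upstream, so that the flank runs into the neighbour's gene. Their flank medians were -0.13 to -0.11 over the 6 arrays, against 0.00 to 0.07 at the other starts with both windows. The flank was higher than the downstream window at 19.43% of them and at 9.706% of the others. Between PL2F8 and AB2.2, 36.15% of these flanks were higher and 25.34% lower, against 36.26% and 23.78%.

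The array names carry 2 number series, 1 with both AB2.2 arrays and the PL2F8 array of replicate 2, and 1 with both R1 arrays and the PL2F8 array of replicate 1. Within the series that holds both lines, which is the comparison without PL2F8 replicate 1, limma called 2560 flanks higher and 1410 lower in PL2F8. Downstream the within-series counts were 4038 and 449, and the within-array difference was larger at 3358 starts and smaller at 585. For these 3 comparisons the fit with the series as a block is the same by construction and no further check. PL2F8 replicate 1 is the only array of these lines in its series, so the block takes it out.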

How the data were processed

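Per the labels' design text, the authors divided normalized ChIP by normalized input signal; the deposited table of the series holds 1 log2 ratio per probe and array. The sources used here give no normalization method, peak caller or genome build. The authors' peak lists, deposited per array, give each peak a score, which the file headers describe as a log2 ratio, and a false discovery rate as a fraction. Each array was centred on its probe median, with no loess or quantile step, and window values are probe means. For PL2F8 against AB2.2, limma 3.58.1 was run under R 4.3.3 (lmFit, eBayes, two-sided, Benjamini-Hochberg over all windows, threshold 0.05); errors after ± are its moderated standard errors, n = 2 arrays per line. Named flanks are the highest and lowest, the largest rises, falls and differences, and the extremes of each gene list, by rank; a few of the genes so ranked are not reported here. The members and lists were chosen with earlier results of these data known. A check of promoter CpG was void, since 77.1% of starts matched a RefSeq promoter, as was one of upstream neighbours (65.8%). Windows, counts and plots were made with numpy 2.4.6, pandas 2.3.3 and matplotlib 3.10.9 under Python 3.11.15. The alternatives tried are under the closing section. The number of arrays limits the precision.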

Additional observations from a re-analysis of the deposited data

Results flagged for a closer look

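Of the 20 largest flank differences between PL2F8 and AB2.2, 3 stood out because the R1 arrays differed the other way by at least 0.5. Smaller opposite R1 differences, as at Fkbp4, Hes2, 8430427H17Rik, Chst3 and Sec14l3, were not counted. The R1 conditions have 1 array each, so the difference between the 2 contrasts was not tested. At Klhl31 the flank differed by -0.64 with Brca1 siRNA in R1 and by 1.83 between PL2F8 and AB2.2. At Spic these values were -0.75 and 1.65. At Pde6g they were 0.96 and -1.36, with the R1 control array at -0.97 and the Brca1 siRNA array at -0.01.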

How the results depend on the processing

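The excess of higher over lower flanks in PL2F8 turned under quantile normalization (2461 and 3553 called) and under none of the other alternatives run. The difference of the array medians turned under that scaling (-0.066) and with the median of probes (-0.0225). For lower downstream windows that scaling gave 1357. Leaving out 1 array in turn gave 2560 to 3893 higher and 1410 to 2730 lower flanks, 4038 to 7401 higher and 418 to 1265 lower downstream windows, and 3358 to 6764 larger and 573 to 1888 smaller within-array differences. The number series as a block, or the series that holds both lines alone, gave 1410 lower flanks, 449 lower downstream windows, and 3358 larger and 585 smaller differences, with fewer arrays. The replicate block, over numbers that the labels share but do not explain (deviations of same-numbered arrays correlated at r = 0.083 across flanks), gave 3664 higher and 2446 lower flanks, 6592 and 910 downstream windows and 5701 and 1236 differences.

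Alternatives that test far fewer windows move counts by construction. With at least 10 probes in each window, 865 starts had both, of which 544 and 63 were higher and lower downstream, 608 and 133 had the higher signal downstream and in the flank, and 471 and 106 had a larger and a smaller difference in PL2F8. Chosen after seeing the data, starts on an AB2.2 peak list gave 2170 (36.4%) higher and 1391 (23.3%) lower of 5965 flanks. Of their 5960 downstream windows 3240 (54.4%) were higher. They gave 5118 (85.9%) and 477 (8%) starts by window and 2797 (46.9%) larger differences. Starts on all 6 peak lists gave 1506 (40.4%) and 685 (18.4%) of 3732 flanks. Of their 3731 downstream windows 2320 (62.2%) were higher and 203 (5.44%) lower. They gave 3415 (91.5%) and 208 (5.57%) starts by window and 1832 (49.1%) and 298 (7.99%) differences. Peaks with a false discovery rate of at most 0.05 lay in 439 and 499 flanks in R1, 387 and 419 in AB2.2 and 274 and 281 in PL2F8, and overlaps of at least 500 bp in 162 and 204, 106 and 109, and 143 and 144.

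Of the named flanks' line differences under the alternatives, 1314 kept direction and side of the threshold, 44 lost and 11 gained the call, and 22 changed sign; the cause was not tested. With the farther kilobase alone the differences were -0.24 at Hoxd11, -0.09 at Spic, 0.90 at Tbx20, -0.29 at Jarid2, 0.21 at Phc2, -0.22 at Cbx8, -0.15 at Dazl, 0.043 at Trp53bp1 and -0.47 at Cdkn1c. With the nearer one they were 0.27 at Dnajb2, -0.079 at Sim2, -0.035 at Pcgf2 and -0.10 at Ercc1. With the median of probes they were -0.30 at Sim2, 0.065 at Foxq1, 0.31 at Phc2, -0.0050 at Ercc1 and -0.16 at Cdkn1c. Quantile normalization gave -0.0081 at Cbx8 and -0.19 at Cdkn1c, equal median absolute deviations gave -0.010 at Sim2, and Cdkn1c lay between -0.044 (without AB2.2 replicate 2) and 0.19 (without AB2.2 replicate 1) with 1 array left out. The number of arrays, 2 per line and 1 per R1 condition, limits the precision.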
